A study of Callithrix jacchus with 3 samples.

Results

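The nuclear receptor genes of the common marmoset, with a few of their coregulators and retinoic acid carriers, were described across 3 RNA sequencing libraries of EPSC-like cells. EPSC stands for extended pluripotent stem cell. Of 49 listed symbols, 44 matched a counted Ensembl gene ID, out of 30811 IDs in the files and 12660 with a symbol. They comprised 40 of the 43 listed receptors, 3 coregulators and 1 carrier. THRA, NR2C1, NR2F2, NRIP1 and CRABP2 had no mapped ID and were not analysed here.

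The study attempted to convert embryonic stem cells of this New World monkey to the extended pluripotent state, per its title. All 3 libraries belong to 1 group, labelled as extended pluripotent stem cells, with no parental or control cells. Their titles share the name No40 and differ in the replicate number alone. What No40 denotes, the culture medium, the passage and whether the libraries came from separate cultures are not stated in any source at hand. P-values of the level tests therefore reflect library-to-library spread, possibly a technical one, whereas p-values between a pair of libraries reflect counting error alone. No sequence was at hand to be shown for these genes.

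Nuclear receptors are transcription factors that bind DNA through a pair of zinc fingers and, in most members, carry a pocket for a small lipophilic ligand. Retinoic acid receptors (RAR) pair with retinoid X receptors (RXR), which also serve as partners of the thyroid hormone, vitamin D, fatty acid and oxysterol receptors. Steroid receptors mostly act as homodimers and are held ready by chaperones, whereas orphan receptors were named before any ligand was known and some need none. Without ligand, several receptors recruit corepressors such as NCOR1. In pluripotent cells retinoic acid is a classic inducer of differentiation, and in mouse cells the orphan receptor NR6A1 represses the gene of the pluripotency factor OCT4 during that process.

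Replicates 1, 2 and 3 held 52327369, 55224475 and 40593244 counts. All 9 mapped pluripotency markers lay above 1 CPM (counts per 1000000, after TMM scaling), against 78.3% of tested genes with a symbol. The 9 markers summed to 6527 CPM in replicate 3, against 6630 and 6832 CPM in replicates 1 and 2. DNMT3B, with a mean of 2688 CPM, makes up much of that sum. The pluripotency markers are shared with embryonic stem cells. All 7 mapped fibroblast markers lay above 1 CPM as well, so passing that level does not identify the cell type. Replicate 3 stood apart. Libraries were compared pair by pair with an exact conditional binomial test of each gene's 2 counts, and a gene is called higher or lower where the adjusted p was under 0.05 and the difference at least 1.5-fold. Without that fold, replicate 3 differed beyond counting noise from replicate 1 in 45.9% and from replicate 2 in 46.3% of 23432 tested genes, whereas replicates 2 and 1 differed in 6.85%. Of the 9 pluripotency markers, LIN28A, LIN28B and SALL4 were lower in replicate 3 than in both other libraries (ratios 0.520, 0.633 and 0.434 over replicate 1), or 33.3%, against 8.32% of all genes tested and 12.7% of genes that averaged 1 CPM or more. Markers of other cell types differed too, though not in every list. The summed level of 6 trophoblast markers was 13.0 CPM in replicate 3, against 29.7 and 30.7 CPM in replicates 1 and 2, and 3 of the 6 were lower in replicate 3 than in both, while KRT7 was at 1.26 and 1.20 of its level in them. For 6 endoderm markers the sums were 9.88 CPM, against 18.8 and 19.3 CPM, with 2 lower. Of these, GATA6 stood at 0.49 CPM, against 7.32 and 8.06 CPM, while GATA4 and APOA1 had no call. For 7 fibroblast markers the sums were 513 CPM, against 766 and 715 CPM, with 3 lower. Much of each came from COL1A1, at 404 CPM, against 546 and 516 CPM, with no call. For 5 neuroectoderm markers the sums were 4.12 CPM, against 7.55 and 8.17 CPM, with 1 lower. For 7 mesoderm markers the sums were 44.9 CPM, against 49.4 and 47.1 CPM. Of the 7, 1 was lower, a share of 14.3% that is near the background. TBXT was higher in replicate 3 than in replicate 2 alone (ratio 1.67). AFP, CYP19A1 and MSGN1 had no count in any library, and CDX2 had none in replicate 3. The part of these cells in the differences of replicate 3 was not tested. In such bulk RNA, fewer cells of a type and less RNA per cell cannot be told apart.

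Of the 44 genes, 28 were called above 1 CPM, 14 below it, and PPARG and NR4A2 could not be distinguished from that level (F statistic of edgeR's quasi-likelihood fit, adjusted p under 0.05 by Benjamini-Hochberg). Thus 63.6% lay above the level, against 56.0% of all genes tested and 78.3% of tested genes with a symbol. The share below it was 31.8%, against 37.8% and 16.1%. All 44 had at least 1 count, and 29 averaged 1 CPM or more. CPM takes no account of transcript length, and no lengths of the counted annotation were at hand. Levels of different genes and class medians set side by side are therefore in CPM, and are no ranking of transcript abundance. The calls say where each gene stood against the same fixed level.

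**Figure D1:**
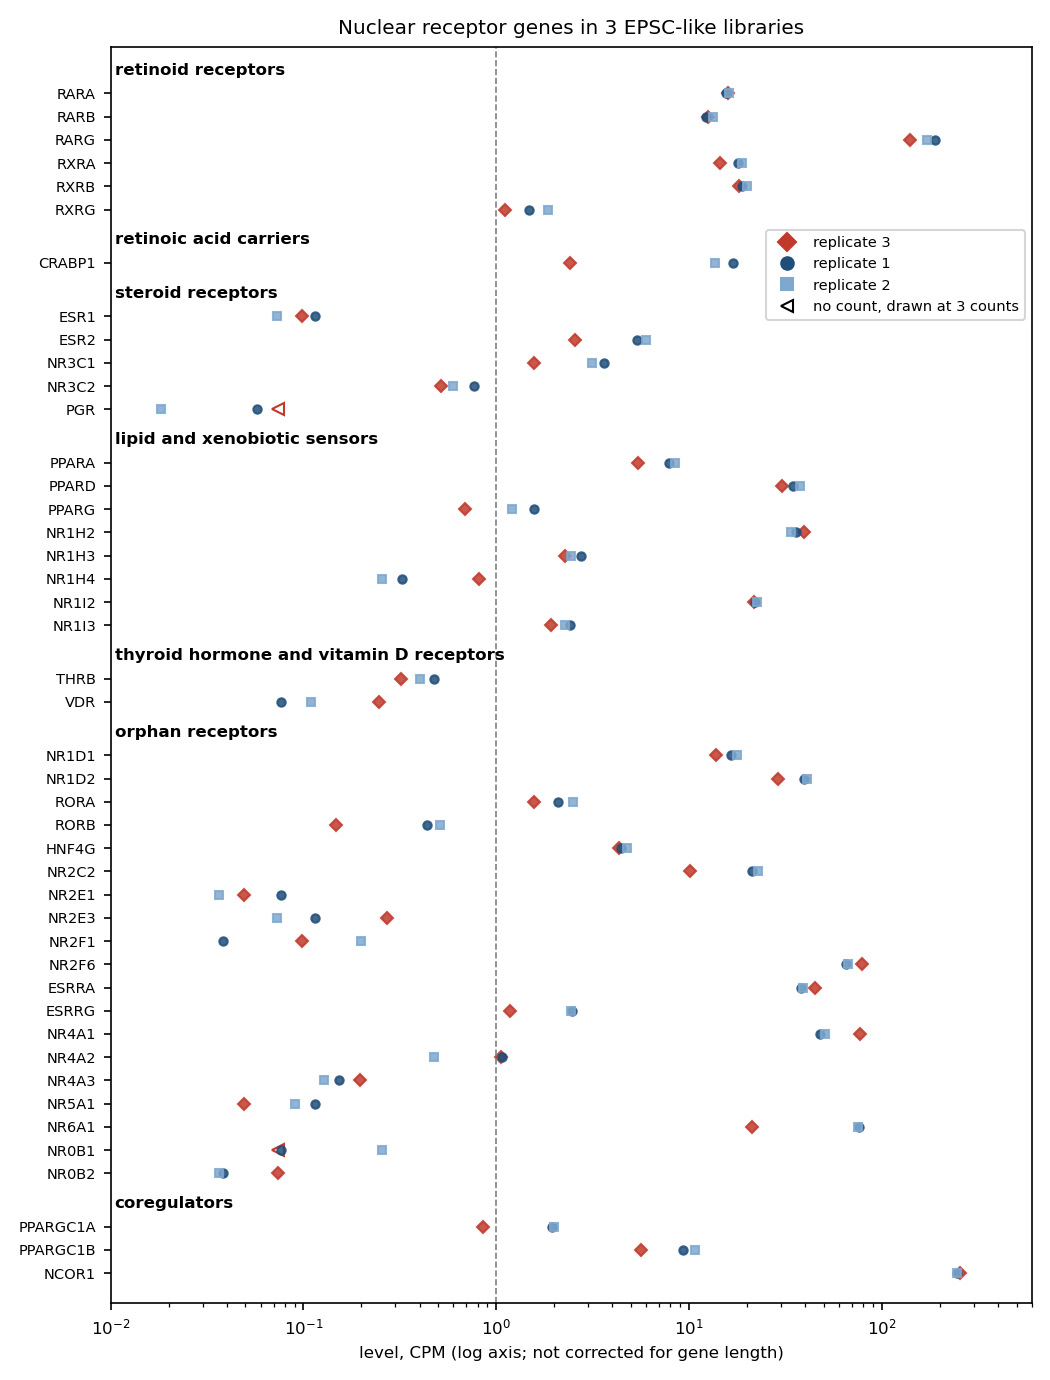
Level of each of the 44 genes in CPM (log axis) in replicate 3 (red diamonds), replicate 1 (dark circles) and replicate 2 (light squares), grouped by class, with the dashed line at 1 CPM and open triangles at the 3-count limit where a library had no count. All 6 retinoid receptors lie above the line, 8 of 19 orphan receptors were called below it, and NR6A1 and CRABP1 show replicate 3 apart from the other libraries.

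The classes differed in how many members passed the level. All 6 retinoid receptors were above 1 CPM, as were 6 of 8 lipid and xenobiotic sensors, 10 of 19 orphan receptors and 2 of 5 steroid receptors. The shares were 100% of the retinoid, 75.0% of the lipid and xenobiotic, 52.6% of the orphan and 40.0% of the steroid class. Among tested genes with a symbol the share was 78.3%. Neither of the 2 mapped thyroid hormone and vitamin D receptors was above it. The class medians of log2 CPM were 4.03 ± 0.10 for retinoid receptors, 2.08 ± 0.22 for lipid and xenobiotic sensors, 0.87 ± 0.55 for orphan receptors and −0.67 ± 0.28 for steroid receptors (SD over libraries, n = 3). The median over all genes tested was 1.68 ± 0.07, and over tested genes with a symbol 4.10 ± 0.10. No test between classes was made, since the genes were chosen and are not replicates.

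**Figure D2:**
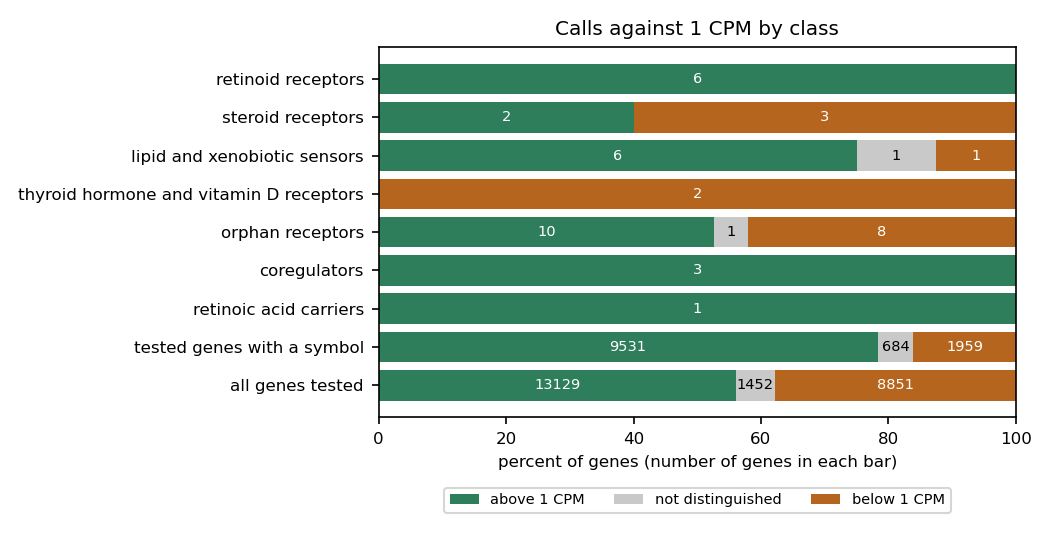
Share of genes called above, not distinguished from and below 1 CPM in each class, with the 12174 tested genes with a symbol and all 23432 tested genes below; numbers in the bars are genes. The retinoid class is above the level throughout, and 3 of 5 steroid receptors and both thyroid hormone and vitamin D receptors are below it.

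All 3 retinoic acid receptor genes and all 3 retinoid X receptor genes were expressed above the level. RARG, which encodes the gamma form of the retinoic acid receptor, stood at 139 CPM in replicate 3, against 188 and 172 CPM in replicates 1 and 2 (mean 166 ± 24.8 CPM, SD, n = 3). Replicate 3 was the lowest, and its ratio over replicate 1, at 0.741 (95% exact interval 0.717 to 0.765), did not reach the 1.5-fold difference required for a call. RARA averaged 15.8 ± 0.31 CPM, and RARB, itself a retinoic acid target in many cells, 12.7 ± 0.56 CPM. Both kept narrow ranges, from 15.5 to 16.1 CPM and from 12.3 to 13.3 CPM over the 3 libraries.

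Among the RXR genes, which encode the shared dimer partners, RXRB stood at 18.2 CPM in replicate 3, against 18.8 and 19.9 CPM in replicates 1 and 2. RXRA stood at 14.4 CPM, against 18.0 and 18.7 CPM. RXRG, known chiefly from muscle and brain, was close to the level, with 45 counts in replicate 3, against 77 and 102 counts in replicates 1 and 2 (mean 1.48 ± 0.38 CPM, adjusted p = 0.0267, edgeR). Leaving out replicate 1 or replicate 2 ended its call (adjusted p = 0.0850 and 0.284). No retinoid receptor differed by 1.5-fold between replicate 3 and both other libraries, and RXRG alone differed from 1 of them, at 0.595 of the level in replicate 2 (interval 0.409 to 0.853, adjusted p = 0.00945, exact conditional binomial test).

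CRABP1, which encodes a cytoplasmic carrier that binds retinoic acid, was the mapped member with the lowest ratio in replicate 3 among the 29 that averaged 1 CPM or more. It stood at 2.40 CPM in replicate 3, against 16.9 and 13.7 CPM in replicates 1 and 2, from 98, 886 and 751 counts. Replicate 3 thus lay far below the other libraries, at 0.142 of replicate 1 (interval 0.114 to 0.175, adjusted p = 2.03e-118, exact conditional binomial test) and 0.176 of replicate 2 (interval 0.141 to 0.217). The gene was above 1 CPM in each library.

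Of the genes that supply and clear retinoic acid, 7 of 10 mapped were above 1 CPM and 3 below, against 78.3% and 16.1% of tested genes with a symbol. The call of ALDH1A1 above the level was lost without replicate 1 (adjusted p = 0.0661, edgeR). The retinal reductase gene RDH11 averaged 224 ± 40.7 CPM, the retinal reductase gene DHRS3 42.0 ± 1.93 CPM and STRA6, a receptor for the retinol carrier in plasma, 20.8 ± 6.04 CPM (SD, n = 3). STRA6 was higher in replicate 3 than in both other libraries, with 1131 counts, against 869 and 996 counts in replicates 1 and 2 (log2 ratios 0.74 and 0.61). ALDH1A3, which makes retinoic acid from retinal, was lower in it, with 107 counts, against 270 and 321 (log2 ratios −0.98 and −1.15). So was CYP26A1, a retinoic acid hydroxylase and a textbook retinoic acid target, with 56 counts, against 177 and 177 (log2 ratios −1.30 and −1.23). ALDH1A2, with 18 counts in replicate 3, against 12 and 36 in replicates 1 and 2, was below 1 CPM, a call lost without replicate 1 (adjusted p = 0.0841, edgeR). CYP26C1, with 6 counts, against 3 and 8, and DHRS9, with 1 count over the 3 libraries, were below it as well.

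Steroid receptor genes were split. ESR2, which encodes estrogen receptor beta, and NR3C1, which encodes the glucocorticoid receptor, were above 1 CPM. ESR1, PGR and NR3C2, the genes of estrogen receptor alpha, the progesterone receptor and the mineralocorticoid receptor, were below it. ESR2 stood at 2.58 CPM in replicate 3, against 5.39 and 5.95 CPM in replicates 1 and 2 (mean 4.64 ± 1.81 CPM, SD, n = 3). NR3C1 stood at 1.57 CPM, against 3.63 and 3.13 CPM (mean 2.78 ± 1.08 CPM). Both were lower in replicate 3 than in both other libraries. For ESR2 the ratios were 0.478 over replicate 1 (interval 0.378 to 0.600) and 0.433 over replicate 2 (adjusted p = 9.34e-11 and 1.95e-14, exact conditional binomial test). For NR3C1 they were 0.432 (interval 0.320 to 0.577) and 0.502 (adjusted p = 5.44e-09 and 4.46e-06).

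ESR1 had 4 counts in replicate 3, against 6 and 4 counts in replicates 1 and 2. PGR had 0 counts in replicate 3, which allows up to 0.0736 CPM by the limit of 3 counts, and 3 and 1 counts in replicates 1 and 2. Differences between libraries were not detectable at such counts. NR3C2 had 21 counts in replicate 3, against 40 and 33 counts (ratios 0.674 and 0.858, no call), and a mean of 0.63 ± 0.13 CPM. Its call below 1 CPM (adjusted p = 0.0379, edgeR) was lost with DESeq2 (0.0729) and without replicate 1 or 2 (0.0902 and 0.166). Of 8 mapped chaperones and co-chaperones of steroid receptors, all were above 1 CPM, against 78.3% of tested genes with a symbol. HSPA8, the heat shock cognate gene, averaged 1357 ± 480 CPM. PTGES3, which encodes p23, averaged 909 ± 53.0 CPM, and STIP1 438 ± 16.1 CPM.

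FKBP5, a co-chaperone of the glucocorticoid receptor whose gene is itself induced by glucocorticoids, was lower in replicate 3 than in both other libraries, with 2262 counts, against 6236 and 6840 counts in replicates 1 and 2 (log2 ratios −1.10 and −1.16). HSPA8 was lower as well (log2 ratios −1.02 and −1.03). The other 3 mapped glucocorticoid-induced genes did not share 1 pattern. SGK1 and PER1 averaged 125 ± 4.50 and 90.3 ± 7.58 CPM (SD, n = 3), with no call between libraries. ZBTB16 was below 1 CPM and had 8 counts in replicate 3, against 34 and 32 counts. Like FKBP5, it was called lower in replicate 3 than in both other libraries. Its ratios were 0.302 over replicate 1 and 0.337 over replicate 2 (adjusted p = 0.00369 and 0.0115, exact conditional binomial test).

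Of 8 lipid and xenobiotic sensors, 6 were above the level, or 75.0%, a share near the 78.3% of tested genes with a symbol. NR1H2, which encodes the widely expressed oxysterol receptor LXR beta, stood at 39.3 CPM in replicate 3, against 35.9 and 34.0 CPM in replicates 1 and 2. PPARD, the fatty acid receptor gene found in most tissues, stood at 30.3 CPM, against 34.7 and 37.7 CPM. Neither differed by 1.5-fold. NR1I2, the gene of the xenobiotic receptor PXR best known from liver and gut, averaged 22.1 ± 0.44 CPM, with 885 counts in replicate 3, against 1153 and 1241 counts. PPARA, a regulator of fatty acid oxidation, averaged 7.24 ± 1.58 CPM, and was lower in replicate 3 than in replicate 2 (ratio 0.645, interval 0.547 to 0.759). NR1H3, the LXR alpha gene, had 93 counts in replicate 3, against 144 and 135 counts. After scaling for depth its ratios were 0.829 and 0.929, with no call between libraries. NR1I3, the gene of the xenobiotic receptor CAR, averaged 2.20 ± 0.26 CPM.

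PPARG, the regulator of fat cell formation, was not distinguished from 1 CPM, with 28 counts in replicate 3, against 82 and 66 counts in replicates 1 and 2. The ratio of replicate 3 was 0.438 over replicate 1 (interval 0.275 to 0.680) and 0.572 over replicate 2 (interval 0.354 to 0.903, adjusted p = 0.000322 and 0.0327, exact conditional binomial test). Without replicate 3, PPARG was above the level (adjusted p = 0.00526, edgeR). NR1H4, which encodes the bile acid receptor FXR, moved the other way. It had 33 counts in replicate 3, against 17 and 14 counts, with ratios of 2.49 (interval 1.35 to 4.77) and 3.18 (interval 1.66 to 6.43, adjusted p = 0.00667 and 0.000696). It was below 1 CPM at 0.46 ± 0.30 CPM. Leaving out replicate 1 or 2 ended that call (adjusted p = 0.0710 and 0.0919).

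Of 7 mapped PPAR target genes, 5 were above 1 CPM, or 71.4%, against 78.3% of tested genes with a symbol. The share below it was 28.6%, against 16.1%. PLIN2, a lipid droplet coat gene, averaged 162 ± 18.1 CPM, and the beta-oxidation genes ACADVL and ACADM 142 ± 6.61 and 39.5 ± 3.27 CPM (SD, n = 3). The carnitine transferase gene CPT1A, with 16 counts in replicate 3, against 30 and 23 (ratios 0.684 and 0.938, no call), was below the level. So was the fatty acid transporter gene CD36, with 3 counts, against 5 and 7. LPL was lower in replicate 3 than in both other libraries. All 4 mapped LXR target genes, of which NR1H3 is also a member, were above the level, against the same 78.3%. SREBF1 averaged 68.9 ± 4.15 CPM and LPCAT3 63.7 ± 7.46 CPM. The cholesterol efflux gene ABCA1 averaged 23.2 ± 9.21 CPM and was lower in replicate 3, with 511 counts, against 1512 and 1541 (log2 ratios −1.21 and −1.16).

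The thyroid hormone receptor gene THRB and the vitamin D receptor gene VDR were below 1 CPM. THRB had 13 counts in replicate 3, against 25 and 22 counts in replicates 1 and 2. VDR had 10 counts, against 4 and 6 counts. Neither was called different in any pair of libraries, and at these counts the intervals were wide, from 0.925 to 14.0 for the VDR ratio of replicate 3 over replicate 1.

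Orphan receptors were split, with 10 above the level and 8 below it. NR2F6, a COUP-TF relative, stood at 78.6 CPM in replicate 3, against 64.9 and 66.8 CPM in replicates 1 and 2 (mean 70.1 ± 7.45 CPM, SD, n = 3). ESRRA, the estrogen-related receptor gene known for control of mitochondrial genes, stood at 44.9 CPM, against 38.0 and 38.8 CPM (mean 40.5 ± 3.80 CPM). Replicate 3 was the highest library for both, by less than 1.5-fold. ESRRG, of the same subfamily, went the other way, with 48 counts, against 129 and 134 counts, and ratios of 0.477 (interval 0.335 to 0.670) and 0.483 (adjusted p = 2.36e-05 and 2.82e-05, exact conditional binomial test).

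NR4A1, an immediate early gene that responds to serum and stress, was the only member of the NR4A group called above 1 CPM and the only member above 1 CPM that was called higher in replicate 3. It stood at 77.1 CPM in replicate 3, against 47.6 and 50.7 CPM in replicates 1 and 2. The ratios were 1.62 (interval 1.54 to 1.71) and 1.52 (interval 1.45 to 1.60), just past the 1.5-fold required. NR4A2 had 43 counts in replicate 3, against 56 and 26 counts, and could not be told from 1 CPM. It was called higher in replicate 3 than in replicate 2 (ratio 2.23, interval 1.34 to 3.78). Replicates 3 and 1 were not called different for it (ratio 0.985). NR4A2 was also the only member called different between replicates 2 and 1, at a ratio of 0.442 (adjusted p = 0.0140, exact conditional binomial test). The background of that comparison was 0.632% of tested genes lower and 0.435% higher. NR4A3 had 8 counts in replicate 3, against 8 and 7 counts.

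NR6A1, also called germ cell nuclear factor, had the lowest ratios in replicate 3 among those of the 40 mapped member receptors that averaged 1 CPM or more. It stood at 21.3 CPM in replicate 3, against 76.4 and 75.4 CPM in replicates 1 and 2, from 869, 3997 and 4144 counts. Replicates 2 and 1 were not called different (ratio 0.986, adjusted p = 0.871, exact conditional binomial test), and replicate 3 was at 0.279 of replicate 1 (interval 0.259 to 0.300) and 0.283 of replicate 2 (interval 0.263 to 0.304). POU5F1, the OCT4 gene that NR6A1 represses in mouse, had 48314 counts in replicate 3, against 50980 and 53426 counts (log2 ratios 0.28 and 0.29), with no call. NR5A1, the steroidogenic factor gene, had 2 counts in replicate 3, against 6 and 5 counts.

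NR2C2, which encodes the testicular receptor TR4, stood at 10.1 CPM in replicate 3, against 21.3 and 22.7 CPM in replicates 1 and 2. Replicate 3 was at 0.475 of replicate 1 (interval 0.423 to 0.532) and 0.445 of replicate 2 (adjusted p = 1.71e-40 and 4.37e-50, exact conditional binomial test). HNF4G, a relative of the liver regulator HNF4A, averaged 4.51 ± 0.22 CPM and was called different in no pair. NR2E1, known from neural stem cells, had 2 counts in replicate 3, against 4 and 2 counts in replicates 1 and 2. NR2E3, known from the retina, had 11 counts in replicate 3, against 6 and 4 counts. NR2F1, the COUP-TFI gene of neural and mesodermal tissues, had 4 counts in replicate 3, against 2 and 11 counts. These 3 genes were below 1 CPM.

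The atypical receptor genes NR0B1 and NR0B2, whose proteins lack the zinc finger DNA-binding domain, were also below 1 CPM. NR0B1, known as a pluripotency-associated gene in mouse embryonic stem cells, had 0 counts in replicate 3, against 4 and 14 counts in replicates 1 and 2, and was called lower in replicate 3 than in replicate 2 (adjusted p = 0.00232, exact conditional binomial test). NR0B2 had 3 counts in replicate 3, against 2 and 2 counts.

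Of the clock receptors, NR1D1, NR1D2 and RORA were called above 1 CPM. NR1D1 and NR1D2, the REV-ERB repressors of the circadian loop, averaged 16.1 ± 2.08 and 36.4 ± 6.39 CPM (SD, n = 3). NR1D2 stood at 29.1 CPM in replicate 3, against 39.5 and 40.7 CPM in replicates 1 and 2, a ratio of 0.737 over replicate 1 that did not reach 1.5-fold. RORA, the activator that competes with them, averaged 2.05 ± 0.47 CPM. RORB was below 1 CPM, with 6 counts in replicate 3, against 23 and 28 counts, and was lower there (ratios 0.335 and 0.289, adjusted p = 0.0374 and 0.00967, exact conditional binomial test). All 12 mapped clock partner genes were above the level, against 78.3% of tested genes with a symbol. Among them were CSNK1E at 137 ± 4.02 CPM, PER1 at the level given above and CSNK1D at 90.1 ± 19.1 CPM. CLOCK and CRY2 were lower in replicate 3 than in both other libraries (log2 ratios −0.75 and −0.78 over replicate 1). They were 16.7% of the 12, near the 12.7% of genes that averaged 1 CPM or more.

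The corepressor gene NCOR1 varied little, at 255 CPM in replicate 3, against 245 and 246 CPM in replicates 1 and 2 (mean 249 ± 5.78 CPM, SD, n = 3). The coactivators of the PGC-1 family, which act with PPARs and estrogen-related receptors on mitochondrial genes, varied more. PPARGC1B stood at 5.64 CPM in replicate 3, against 9.25 and 10.8 CPM, with ratios of 0.610 (interval 0.519 to 0.715) and 0.523 (adjusted p = 1.48e-09 and 3.38e-17, exact conditional binomial test). PPARGC1A had 35 counts, against 102 and 109 counts, with ratios of 0.440 and 0.433 (adjusted p = 4.97e-05 and 2.51e-05). Its call above 1 CPM (adjusted p = 0.0311, edgeR) was lost among genes that pass filterByExpr (0.0525) and without replicate 1 or 2 (0.125 and 0.133).

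All 18 other coregulator genes were above 1 CPM, against 78.3% of tested genes with a symbol. KDM1A, a histone demethylase, averaged 329 ± 28.5 CPM, and the arginine methyltransferase genes PRMT1 and CARM1 265 ± 18.2 and 218 ± 6.13 CPM (SD, n = 3). Of the 18, 8 were lower in replicate 3 than in both other libraries, or 44.4%, against 12.7% of genes that averaged 1 CPM or more, and 0 were higher. They included the acetyltransferase genes EP300 and CREBBP and the steroid receptor coactivator genes NCOA2 and NCOA3. NCOA3 had 1886 counts in replicate 3, against 5257 and 5411 counts in replicates 1 and 2 (log2 ratios −1.12 and −1.09).

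**Figure D3:**
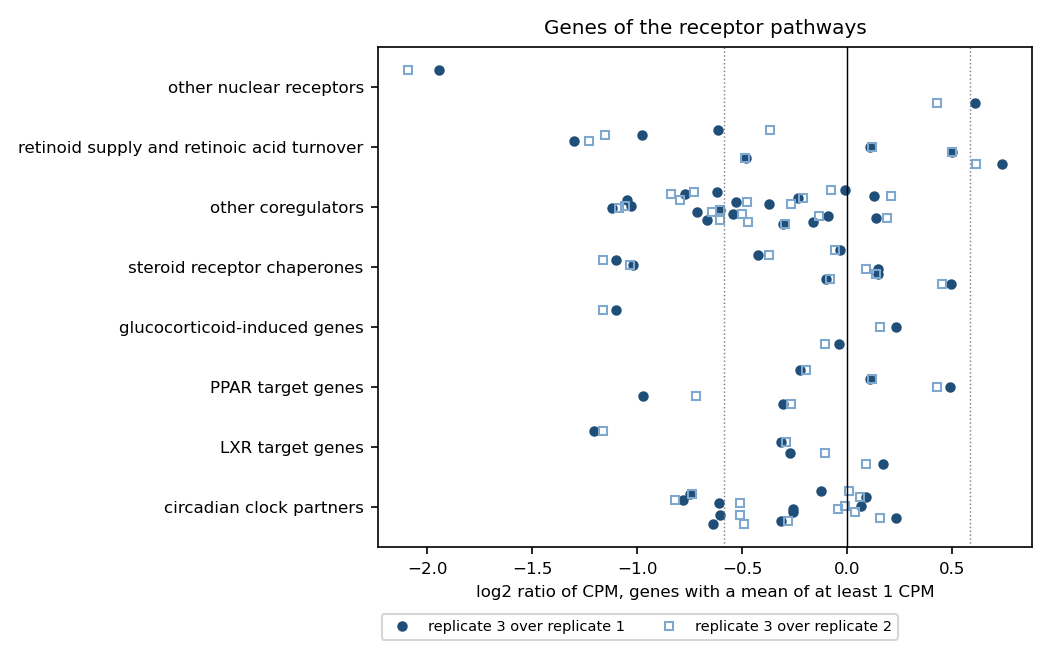
Log2 ratio of CPM of replicate 3 over replicate 1 (filled circles) and over replicate 2 (open squares) for each gene that averaged 1 CPM or more in 8 lists of receptor pathway genes, with dotted lines at the 1.5-fold difference required for a call. Of the 18 other coregulators, 16 lie left of 0 in both comparisons, as do 6951 of all 13719 genes that averaged 1 CPM or more, and STRA6 at 0.74 and 0.61 is right of the line in both comparisons.

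Over all members, replicate 3 was lower than both other libraries in 10 of 44 genes and higher in 2 by the pair test, which compares libraries and no conditions. The 10 were NR6A1, NR2C2, RORB, ESRRG, ESR2, NR3C1, PPARG, PPARGC1A, PPARGC1B and CRABP1, and the 2 were NR4A1 and NR1H4. The 10 were 22.7% of members, against 8.32% of all genes tested and 12.5% of tested genes with a symbol. Among genes that averaged 1 CPM or more, 9 of 29 members were lower, or 31.0%, against 12.7% of all such genes. The 2 higher ones were 4.55%, against 4.12% of all genes tested and 2.98% of those with a symbol, a share near the background. Of the 29, 1 was higher, against 4.10% of all genes of that level. Both comparisons share replicate 3.

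By single pairs, 10 of the 44 members were lower and 2 higher in replicate 3 than in replicate 1. The background was 10.1% and 6.14% of all genes tested, and 1768 and 550 of 12174 tested genes with a symbol. In replicate 3 over replicate 2, 14 members were lower and 3 higher. That background was 10.2% and 6.64% of all genes tested, and 1793 and 583 of the 12174. The additional lower ones were RXRG, PPARA, RORA and NR0B1, and the additional higher one was NR4A2. The 14 became 8 with a ratio of 2 required, which ended the calls of RXRG, NR3C1, PPARA, PPARG, RORA and PPARGC1B, and 9 with the counts halved, which ended those of RXRG, PPARG, RORA, RORB and NR0B1. Over all genes, the 2379 lower in replicate 3 than in replicate 2 became 1026 with a ratio of 2 and 1971 with the counts halved. The median log2 ratio over the 44 genes was −0.32 over replicate 1 and −0.31 over replicate 2. In both comparisons it was 0.00 over all genes tested, −0.05 over genes that averaged 1 CPM or more and −0.09 over tested genes with a symbol. By class, the median over replicate 1 was −0.18 in retinoid receptors, −0.23 in lipid and xenobiotic sensors, −0.27 in orphan receptors and −1.06 in steroid receptors, the last over 5 genes of which 3 had few counts.

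**Figure D4:**
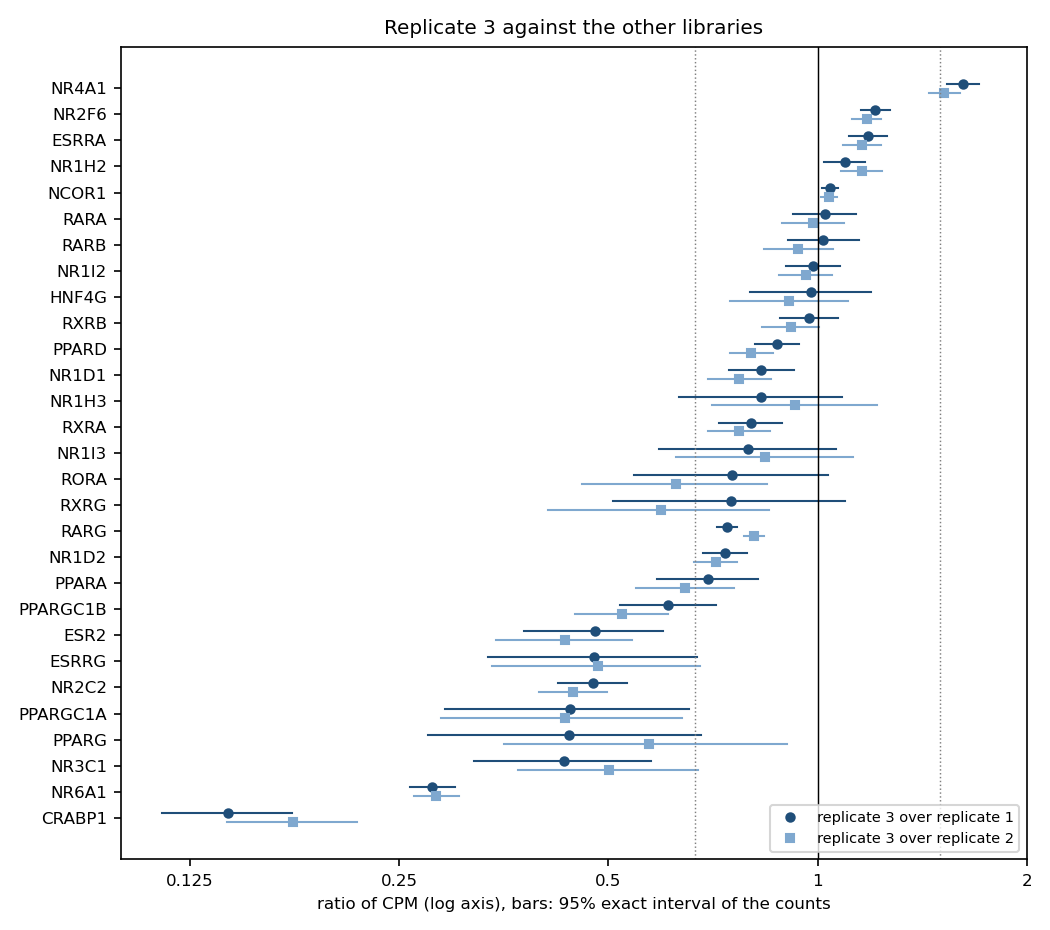
Ratio of CPM of replicate 3 over replicate 1 (circles) and over replicate 2 (squares) on a log axis, with 95% exact intervals from the counts, for the 29 members that averaged 1 CPM or more. CRABP1, at 0.142 and 0.176, and NR6A1, at 0.279 and 0.283, lie farthest to the left, NR4A1 is right of the dotted 1.5-fold line in both, and RARA, RARB and NR1I2 lie at 1 within their intervals.

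Of the receptors listed as relatives, 3 of 4 were mapped. NR5A2, an orphan receptor that sustains OCT4 expression in mouse cells, was above 1 CPM at 16.5 ± 3.70 CPM (SD, n = 3). It had 841 counts in replicate 3, against 706 and 842 counts in replicates 1 and 2, and was called higher than in replicate 1 alone (log2 ratio 0.61). HNF4A, a liver and endoderm regulator, had 16 counts in replicate 3, against 79 and 92 counts (ratios 0.260 and 0.235), and could not be told from 1 CPM. Without replicate 3, HNF4A was above that level (adjusted p = 2.53e-05, edgeR). ESRRB was not distinguished from that level, with 27 counts, against 48 and 47 counts (ratios 0.722 and 0.775, no call).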

How the data were processed

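The 3 deposited files hold whole-number counts per Ensembl gene ID, not normalized by the authors, 1 library each. They were made with STAR 2.5.3a, featureCounts 1.5.2 and Trim Galore 0.4.0, according to the submitters' processing notes. No source at hand states the build, annotation, strand setting or treatment of shared reads (not given in the sources used here). Reads of overlapping genes may therefore not be told apart. Symbols came from a supplied table of gene IDs.

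Members and lists were chosen with earlier results of these data known. Values per library, as counts or CPM, are given for members not called above 1 CPM, those called between replicate 3 and both other libraries, and the 2 of highest mean in each class. Of pathway lists, up to 3 of highest mean and all below the level are named, and a few others, such as ESRRB, CLOCK and NCOA3, were chosen after their values were seen. A few genes of the pathway and marker lists are not reported here, and list counts and sums leave them out.

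Levels of 23432 genes with at least 1 count were tested against 1 CPM with edgeR 4.0.16 (R 4.3.3, limma 3.58.1): TMM scaling, intercept-only glmQLFit with trended dispersion (prior df 4.68), F from deviances with a Poisson bound, two-sided, Benjamini-Hochberg over all genes. Log2 CPM used a prior count of 0.5. Library pairs were compared by an exact conditional binomial test, two-sided, adjusted over all genes, with an adjusted p under 0.05 and a ratio of at least 1.5 required. Intervals are exact (95%) and, like the limit of 3 counts, cover counting error only, since they include no spread between libraries. No molecular identifiers were at hand to tell copied reads apart. Alternatives were DESeq2 1.42.0, no TMM, filterByExpr, levels of 0.5 and 2 CPM, a ratio of 2, halved counts and each library left out. Scripts were tested on simulated data. Figures were drawn with matplotlib 3.10.9.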

Additional observations from a re-analysis of the deposited data

How the results depend on the processing

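The count of members above 1 CPM ran from 26 to 29 when 1 library was left out, and that below it from 12 to 14. Over all genes tested in these fits, 57.2% to 59.2% were above and 34.2% to 37% below. Fits on 2 libraries ignore a gene's own spread. DESeq2 and unscaled totals gave 28 above each, and 13 and 14 below. Over all genes tested these put 55.8% and 56% above, and 37.4% and 37.8% below. Against 0.5 CPM 30 members were above and 9 below, and against 2 CPM 21 and 16. The shares over all genes tested were 60.4% and 30.4% at 0.5 CPM, and 51.4% and 43.5% at 2 CPM. With filterByExpr 27 members were above and 3 below, against 83.3% and 7.9% of all genes that pass it. Over all genes 1242 were then below, against 8851 before, because that filter removes genes with few counts.

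With 1 library left out, the class median of log2 CPM ran from 0.66 to 1.17 in orphan receptors, 3.99 to 4.09 in retinoid receptors, −0.82 to −0.55 in steroid receptors and 2.01 to 2.20 in lipid and xenobiotic sensors. The steroid median was 0.36 among members with at least 10 counts, since that leaves out PGR.

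With a ratio of 2 required, 1 member was higher in replicate 3 than in replicate 1 and 8 lower than in replicate 2. After halving the counts (as if read mates had been counted separately), these numbers were 1 and 9, and 0 members, in place of 1, had a lower level in replicate 2 than in replicate 1. Over all genes, a ratio of 2 left 783 higher and 1076 lower in replicate 3 than in replicate 1, against 1439 and 2372 at 1.5. For replicate 3 over replicate 2 it left 892 and 1026, against 1556 and 2379. With counts halved, 869 of 22351 genes were higher in replicate 3 than in replicate 1 and 1971 lower than in replicate 2. The genes lower in replicate 2 than in replicate 1 then fell from 148 to 8, so the loss of the 1 member went with a loss over all genes.

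PPARG ran from −0.077 log2 CPM without replicate 1 to 0.46 without replicate 3, and NR4A2 from −0.40 without replicate 1 to 0.091 without replicate 2. HNF4A ran from −0.056 without replicate 2 to 0.67 without replicate 3, where it was called above 1 CPM (adjusted p = 2.53e-05, edgeR). Its values come from alternatives for pathway lists that were chosen after seeing the data. None of these 3 was called at the value on the other side of 1 CPM. For single members, 240 level values and 126 pair ratios kept their direction and side of the threshold, while 10 levels and 17 ratios lost a call, of the ratios 9 with a ratio of 2 required and 8 with counts halved. No paired analysis was possible because the 3 libraries form a single group. Depth limits the members with few counts, in which small differences between libraries were not detectable.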

Other observations

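Some members lie next to each other in the genome, by the gene order of the RefSeq assembly calJac240_pri, which may differ from the build counted. NR5A1 and NR6A1 are adjacent, with 0 protein-coding genes between them. NR6A1 stood at 57.7 ± 31.5 CPM and NR5A1 at 0.085 ± 0.033 CPM (SD, n = 3). NR1D2, THRB and RARB follow each other with 0 protein-coding genes between neighbours. They stood at 36.4 ± 6.39, 0.40 ± 0.08 and 12.7 ± 0.56 CPM, so that THRB was below 1 CPM between neighbours above it.

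The spans of 12 mapped members overlap a protein-coding gene in that assembly. These are whole spans from start to end, and an overlap of exons was not checked. With no stated strand setting, whether such pairs share reads is not known. NR2C2 overlaps MRPS25, a mitochondrial ribosomal protein gene. NR2C2 was at 0.475 of its level in replicate 1 in replicate 3, whereas MRPS25 was at 1.51, from 2182 counts in replicate 3, against 1859 and 1818 counts in replicates 1 and 2. ESRRA overlaps TRMT112, and the ratios of replicate 3 over replicate 1 were 1.18 and 1.20. NR1I3 overlaps TOMM40L, which stood at 15.5 ± 0.98 CPM (SD, n = 3), against 2.20 ± 0.26 CPM for NR1I3. NR1H3 overlaps ACP2, at 8.78 ± 0.90 CPM. RXRG overlaps LRRC52, which had 4 counts in replicate 2 and 0 in the others. NR1D1 overlaps THRA, which was not analysed here. How much of each level, if any, came from the overlapping gene was not tested.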
